A study of Homo sapiens with 8 samples.

Results

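Proteoglycans are core proteins that carry glycosaminoglycan chains, and stellate cells of the liver are a known source of them in the injured organ. Small leucine-rich proteoglycans such as decorin and biglycan are secreted, bind collagen fibrils and growth factors, and decorate the scar matrix. Syndecans span the plasma membrane and glypicans are tethered to it by a lipid anchor, and both hold heparan sulphate chains that present growth factors to their receptors. The expression of 10 core protein genes was followed here in the LX-2 line, immortalized human hepatic stellate cells (HSCs). The genes were chosen by family, as the rows of the deposited tables for the small leucine-rich proteoglycans DCN, BGN, LUM and FMOD, the syndecans SDC1, SDC2, SDC3 and SDC4, and the glypicans GPC1 and GPC6. All 10 were found among the 25369 genes listed, and 7 of them had enough counts to be tested.

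The cells carried the wild-type genotype and were grown on polyacrylamide gels coated with plasma fibronectin. The soft matrix had a stiffness of 2 kPa and the stiff matrix one of 40 kPa, and RNA was taken after 2 or 4 days, with 2 libraries for each of the 4 conditions. As a model, this is 1 cell line without other liver cells. Between 19955975 and 27263935 counts fell on genes in a library, so that 1 count was worth between 0.0352 and 0.0576 CPM, the counts relative to library size after scaling by edgeR's TMM method. Values are given in CPM for a gene across libraries and in the deposited FPKM, which divide by gene length, for levels between genes. Of 10 stellate and mesenchymal markers, 9 had enough counts to be tested, COL1A1 (504 to 1020 CPM) and VIM (1970 to 6360 CPM) among them, while LRAT, the retinol-esterifying enzyme of quiescent stellate cells, had at most 0.0491 CPM. Of the genes listed for other liver cells, TTR, LYVE1 and CD163 were at 0 in all libraries, and ALB was at no more than 0.461, EPCAM at 0.271 and PECAM1 at 0.211 CPM. Others of the same lists were not near 0, with CD68 at 83.8 to 119, KRT7 at 9.38 to 19.1, SERPINA1 at 4.37 to 10.3 and CD14 at 2.36 to 7.22 CPM. The pair of stiff libraries of day 4 was the least alike. The SD over genes of the log2 CPM difference, divided by the square root of 2, was 0.53, against 0.20 to 0.30 in the other conditions.

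**Figure D1:**
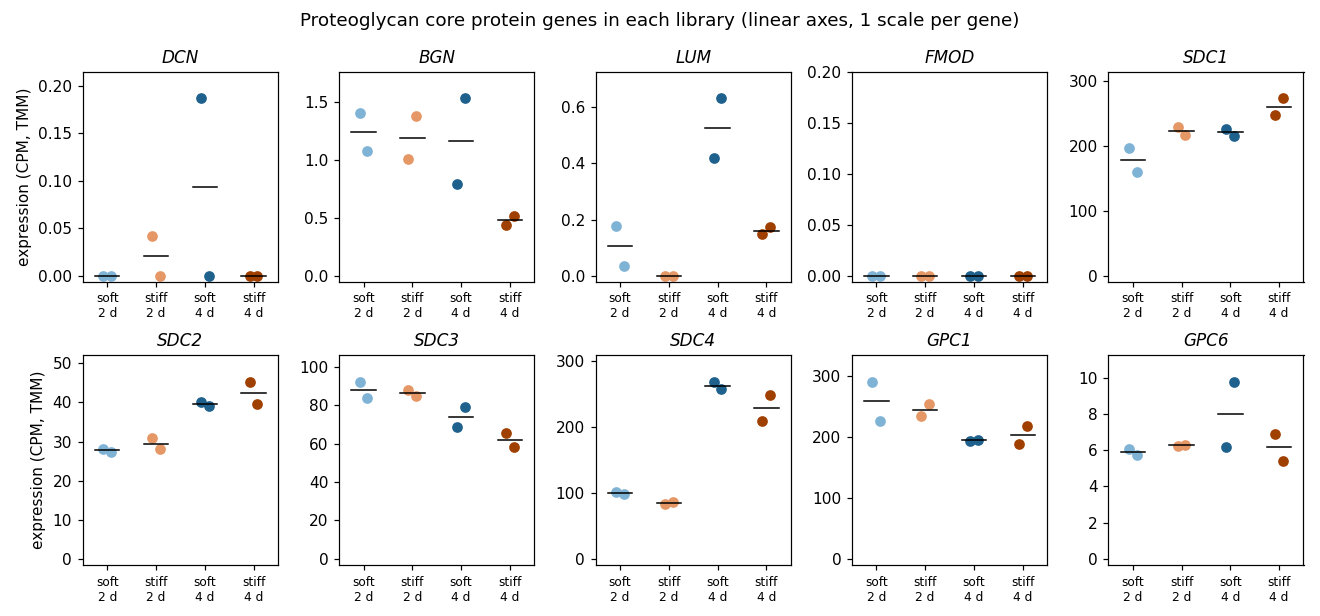
Expression (y axis, CPM scaled by TMM, linear, with its own scale for each gene) of the 10 genes in the 4 conditions (x axis); each point is a library and each line the mean of 2. SDC4 lay between 82.6 and 101.7 CPM in the 4 libraries of day 2 and between 209.4 and 268.3 CPM in the 4 of day 4, whereas FMOD had no count.

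Levels per length differed widely between the 10 genes, also within a family. SDC1, SDC4 and GPC1 had a mean over the 8 libraries of 64.9, 64.1 and 60.9 FPKM, which placed each within the highest 9.14% of the 14570 genes tested. SDC3 followed with 15.0 FPKM and SDC2 with 9.92 FPKM. GPC6 had 0.92 FPKM and BGN 0.415 FPKM, and the other 3 small leucine-rich proteoglycans had less than BGN. The order at the top depended on the day. At 2 days GPC1 led on the soft matrix with 70.2 ± 12.3 FPKM, followed by SDC1 with 52.9 ± 7.54 and SDC4 with 38.2 ± 0.923 FPKM (n = 2, SD), and the libraries of these 3 genes did not overlap. On the stiff matrix at 2 days GPC1 (66.4 ± 4.07 FPKM) and SDC1 (66.0 ± 2.65 FPKM) could not be told apart, and SDC4 stood at 32.2 ± 0.831 FPKM (n = 2, SD). At 4 days SDC4 led, with 99.1 ± 4.19 FPKM on the soft and 86.8 ± 10.2 FPKM on the stiff matrix, ahead of SDC1 with 64.5 ± 2.65 and 76.3 ± 4.92 FPKM and of GPC1 with 52.3 ± 0.211 and 54.6 ± 5.35 FPKM (n = 2, SD). SDC4 and SDC1 were separated by more than their spread on the soft matrix, while on the stiff matrix the highest SDC1 library (79.8 FPKM) reached the lowest SDC4 library (79.6 FPKM). These values are from different libraries. Within each stiff library SDC4 was above SDC1, at 79.6 against 72.9 FPKM in the first and 94.0 against 79.8 FPKM in the second.

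Of the small leucine-rich proteoglycans, DCN, BGN, LUM and FMOD were close to absent. TSKU, another gene of the family, had a mean of 22.8 FPKM on soft gels at 2 days and 10.8 FPKM on stiff gels at 4 days. FMOD, which encodes the collagen-binding fibromodulin, had 0 counts in all 8 libraries, which allows a level of up to 0.106 to 0.173 CPM, taking 3 counts as the limit and covering counting error only. DCN, the gene of decorin, which binds collagen and TGF-beta, had 5 counts in total. Of these, 1 was in the first library from the stiff matrix at 2 days, 4 were in the first library from the soft matrix at 4 days, and the other libraries had 0. LUM, the gene of lumican, a further collagen-binding member, had 35 counts in total. They were 5 and 1 on the soft and 0 and 0 on the stiff matrix at 2 days, and 9 and 14 on the soft and 3 and 3 on the stiff matrix at 4 days. LUM was thus higher on the soft than on the stiff matrix in every library of the same day, as were 22.4% of all genes tested at 2 days and 14% at 4 days. Its counts were too few for the filter applied before testing. In the fit without that filter, LUM had a BH-adjusted p of 1 (unadjusted 0.0422) at 2 days and 0.91 (unadjusted 0.0777) at 4 days for the stiff against the soft matrix, by the quasi-likelihood method of edgeR with p-values adjusted after Benjamini and Hochberg (BH).

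BGN, on chromosome X of GRCh37 from 152760438 to 152775004, was the only one of these 4 genes to pass the filter. It encodes biglycan, a close relative of decorin that also signals to innate immune receptors. Its counts were 40 and 30 on the soft and 24 and 33 on the stiff matrix at 2 days, and 17 and 34 on the soft and 9 and 9 on the stiff matrix at 4 days. The libraries of both matrices overlapped at 2 days. At 4 days the stiff libraries lay below the soft ones without overlap, as in 14% of all genes. The level of BGN was then 1.16 ± 0.523 CPM on soft gels and 0.48 ± 0.054 CPM on stiff gels (n = 2, SD). On the log2 scale the fold change at 4 days was -1.28 (standard error 0.465, 95% confidence interval -2.35 to -0.20), with a BH-adjusted p of 0.581 by edgeR. Without the second soft library of day 4 it was -0.72. With time on stiff gels BGN differed by -1.31 on the log2 scale (standard error 0.46, BH-adjusted p = 0.0687 by edgeR) and on soft gels it had -0.094, with a BH-adjusted p of 0.878. These differences of BGN did not pass, and they cannot be read as absent.

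The first question of the design is whether stiffness changed these genes. Of the 7 genes tested, 0 passed a BH-adjusted p of 0.05 in the contrast of stiff with soft at 2 days (edgeR, quasi-likelihood), 0 had an unadjusted p under 0.05 (2.82% of all genes), and DESeq2 and each limma setting also called 0. Over all genes tested the share called was 0%. At 4 days 0 of the 7 passed and 1, BGN, had an unadjusted p under 0.05, with 0 by DESeq2 and limma. Over all genes 0.247% were called, 0.0343% as higher and 0.213% as lower, and 6.93% had an unadjusted p under 0.05. DESeq2 called 1.04% of all genes and limma voom with sample weights 0.0275%. The share called by edgeR, at 4 as at 2 days, rose when either stiff library of day 4 was left out. The median log2 fold change of the 7 was -0.028 at 2 days and -0.20 at 4 days, beside 0.008 and 0.02 over all genes. SDC1 and SDC4 leaned in opposite directions at both days.

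SDC1, which encodes the syndecan typical of epithelia and plasma cells, lies on chromosome 2 of GRCh37 from 20400558 to 20425194. At 2 days it was at 196.9 and 160.3 CPM on soft gels and 229.3 and 216.1 CPM on stiff gels, and at 4 days at 225.3 and 215.7 CPM on soft gels and 247.6 and 272.9 CPM on stiff gels. The stiff libraries lay above the soft libraries of the same day without overlap, as 25.7% of all genes did at 2 days and 11.7% at 4 days. SDC1 had log2 fold changes of 0.32 (standard error 0.144, 95% confidence interval -0.016 to 0.65) at 2 days and 0.24 (standard error 0.144, 95% confidence interval -0.095 to 0.57) at 4 days, with BH-adjusted p-values of 1 and 0.845 by edgeR. Without the second soft library of day 2 the value at 2 days was 0.18, and without the first it was 0.48. When the libraries of day 2 were fitted on their own, SDC1 passed with a BH-adjusted p of 0.0273 by edgeR, in a fit that called 4.67% of all genes.

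SDC4 encodes a widely expressed syndecan that gathers in focal adhesions and binds the heparin-binding domain of fibronectin, the protein on these gels. It lies on chromosome 20 from 43953928 to 43977064 on the reverse strand. Its level was 101.7 and 97.9 CPM on soft gels and 82.6 and 85.5 CPM on stiff gels at 2 days, and 268.3 and 256.5 CPM on soft gels and 209.4 and 248.8 CPM on stiff gels at 4 days. Here the stiff libraries lay below the soft libraries of the same day without overlap, which held for 22.4% of all genes at 2 days and 14% at 4 days. The log2 fold changes of -0.25 (standard error 0.133, 95% confidence interval -0.56 to 0.06) at 2 days and -0.20 (standard error 0.132, 95% confidence interval -0.50 to 0.11) at 4 days had BH-adjusted p-values of 1 and 0.856 by edgeR. Without the first stiff library of day 4, the log2 fold change at 4 days was -0.068.

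For the other genes, differences between the matrices were small or uneven. SDC2, a syndecan of mesenchymal cells, had log2 fold changes of 0.085 at 2 days and 0.097 at 4 days, the latter -0.016 without scaling factors. SDC3, the longest syndecan core protein, on chromosome 1 from 31342313 to 31381605, had -0.028 at 2 days and -0.25 at 4 days (95% confidence interval -0.57 to 0.074). GPC1, a glypican found in many cell types, on chromosome 2 from 241375080 to 241407493, had -0.081 at 2 days and 0.059 at 4 days, the latter -0.066 without scaling factors. GPC6, a glypican of mesenchymal tissue, on chromosome 13 from 93879060 to 95060274, had 0.09 at 2 days and -0.37 at 4 days, where one soft library was at 9.78 CPM and the other 3 libraries of that day were between 5.41 and 6.92 CPM. The BH-adjusted p-values of these 4 genes were 1 at 2 days and between 0.831 and 0.958 at 4 days by edgeR. Whether the effect of stiffness itself changed between the days was also tested, and 0 of the 7 genes passed by edgeR, 0 had an unadjusted p under 0.05 and DESeq2 called 0. Over all genes 0% were called and 1.95% had an unadjusted p under 0.05. This share called also rose when either stiff library of day 4 was left out.

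**Figure D2:**
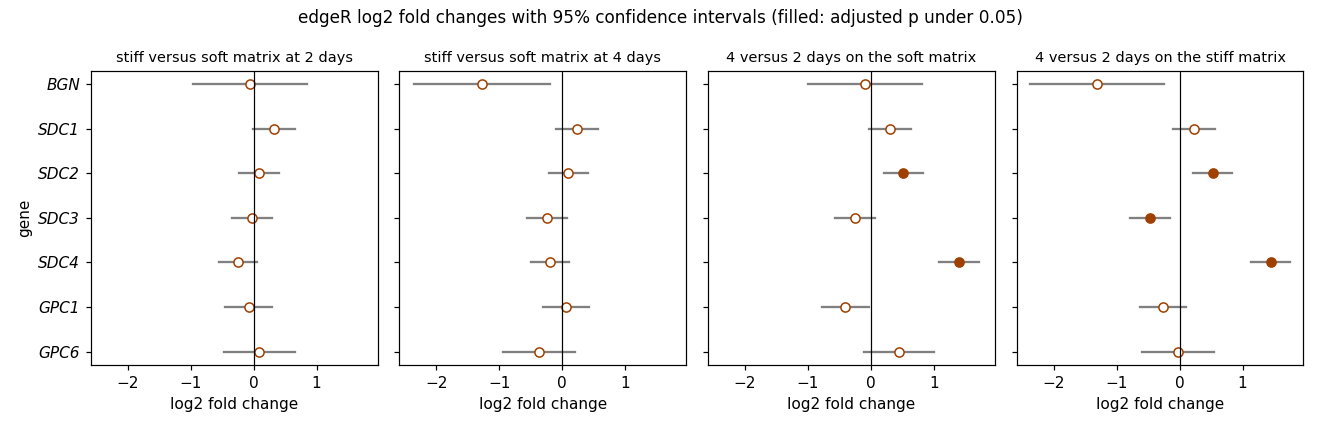
Log2 fold changes (x axis) of the 7 genes tested (y axis) in 4 comparisons, from the edgeR fit of all 8 libraries; points are estimates, lines are 95% confidence intervals, and filled points passed a BH-adjusted p of 0.05. No point is filled for stiffness, while SDC4 and SDC2 are filled for time on both matrices and SDC3 on the stiff matrix; without scaling factors SDC2 and GPC1 change sign at 4 days between the matrices.

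The second question is how expression changed from 2 to 4 days. On the soft matrix 2 of the 7 genes rose and 0 fell at the adjusted cutoff, and on the stiff matrix 2 rose and 1 fell. These shares resemble those over all genes, of which 27.4% passed on the soft matrix (14.1% higher) and 27.6% on the stiff matrix (14% higher, 13.7% lower). At an unadjusted p under 0.05 there were 3 of the 7 on the soft and 4 on the stiff matrix, beside 41% and 41.4% of all genes. The comparisons share no library with each other, but each shares libraries with the comparisons of the matrices above. The median log2 fold change of the 7 was 0.30 on the soft and -0.020 on the stiff matrix. SDC4 changed the most of them. The summed level of the 10 stellate and mesenchymal markers also differed by day, with 2930 to 3180 CPM on soft gels and 3520 to 3680 CPM on stiff gels at 2 days, and 4960 to 5470 CPM on soft gels and 4790 to 7000 CPM on stiff gels at 4 days. VIM made up most of that sum and rose with time by 1.12 on soft and 0.96 on stiff gels on the log2 scale (BH-adjusted p of 0.012 and 0.0204 by edgeR), while COL1A1 differed by -0.47 and -0.57 (BH-adjusted p of 0.0988 and 0.0574). ACTA2 (0.97 and 0.84), THY1 (1.49 and 2.06) and RGS5 (0.73 and 0.74) were also called higher on soft and stiff gels. COL1A2, COL3A1, HAND2 and PDGFRB were not called on either matrix, and PDGFRB had -0.13 and -0.32. The macrophage and leukocyte list summed to 89.7 to 95.2 CPM on soft gels and 106 to 109 CPM on stiff gels at 2 days, and to 106 to 109 and 117 to 127 CPM at 4 days, and its leukocyte gene PTPRC, at 0.503 to 2.89 CPM, rose 4.17-fold on soft and 2.94-fold on stiff gels (BH-adjusted p of 0.011 and 0.0277 by edgeR). The rest of that list was not called. CD68 had log2 fold changes of 0.23 on soft and 0.17 on stiff gels, and CD14 had -0.40 and 0.029. CD163 was at 0 and MARCO at no more than 0.042 CPM. The part of these markers in the results was not tested. In RNA from whole cultures, fewer cells that express a gene and less of its RNA per cell cannot be told apart.

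SDC4 rose 2.63-fold on the soft matrix, from 99.8 ± 2.66 to 262.4 ± 8.34 CPM, and 2.73-fold on the stiff matrix, from 84.1 ± 2.02 to 229.1 ± 27.9 CPM (n = 2, SD). All 4 libraries of day 4 lay above all 4 of day 2. Within 1 matrix, 38.5% of all genes on the soft and 31.6% on the stiff gel were higher at 4 days without overlap, and 36.7% and 31.1% were lower. The log2 fold changes were 1.39 on the soft (standard error 0.135, 95% confidence interval 1.08 to 1.71, BH-adjusted p = 0.00145) and 1.45 on the stiff matrix (standard error 0.135, 95% confidence interval 1.13 to 1.76, BH-adjusted p = 0.0014) by edgeR. By p-value SDC4 ranked 76 of 14570 genes on the soft and 59 on the stiff matrix. The rises on the matrices differed by 0.052 on the log2 scale (standard error 0.187, 95% confidence interval -0.38 to 0.49, BH-adjusted p = 1 by edgeR), which became -0.0085 without scaling factors. Of 20 other settings, the rise passed in 20 on the soft matrix and in 19 on the stiff matrix. The exception was an edgeR fit of the 4 stiff libraries on their own, with a BH-adjusted p of 0.0513 and the same log2 fold change of 1.45, in which 0 genes passed and 4188 had an unadjusted p under 0.05. A processed pseudogene, SDC4P on chromosome 22, had 0 counts in every library, and how reads shared with it were counted is not given in the sources used here.

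SDC2 rose by less. It was at 28.2 and 27.3 CPM on soft gels and 30.8 and 28.1 CPM on stiff gels at 2 days, and at 40.1 and 39.2 CPM on soft gels and 45.3 and 39.5 CPM on stiff gels at 4 days. Every library of day 4 lay above every library of day 2. Within 1 matrix, 38.5% of all genes on the soft and 31.6% on the stiff gel were higher without overlap. The log2 fold change was 0.51 (standard error 0.134, BH-adjusted p = 0.0268) on the soft and 0.53 (standard error 0.135, BH-adjusted p = 0.0252) on the stiff matrix by the edgeR test. Leaving out any 1 of the 6 libraries other than the stiff ones of day 4 ended both calls, with BH-adjusted p-values between 0.0701 and 0.155 on the soft and between 0.0556 and 0.209 on the stiff matrix. Without scaling factors the BH-adjusted p-values were 0.0802 and 0.101, and on the stiff matrix the call also ended with voom sample weights (0.108) and in the fit of the stiff libraries on their own (0.134).

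SDC3 went the other way. It was at 92.1 and 83.5 CPM on soft gels and 87.6 and 84.6 CPM on stiff gels at 2 days, and at 68.5 and 78.8 CPM on soft gels and 65.7 and 58.4 CPM on stiff gels at 4 days. On each matrix the libraries of day 4 were below those of day 2, which held for 36.7% of all genes on the soft and 31.1% on the stiff matrix. On the stiff matrix SDC3 fell by 0.47 on the log2 scale (standard error 0.139, BH-adjusted p = 0.0396 by edgeR), a call that ended without any 1 of the same 6 libraries (BH-adjusted p from 0.0605 to 0.204) and with voom sample weights or the stiff libraries on their own (0.142 and 0.149). On the soft matrix the log2 fold change of -0.25 had a BH-adjusted p of 0.205 by edgeR, and without 1 or the other stiff library of day 4 it passed, with BH-adjusted p-values of 0.046 and 0.0374, in fits that called 52.9% and 52.7% of all genes. The log2 fold change of SDC3 with time differed between the matrices by -0.22 (standard error 0.196, BH-adjusted p = 1 by edgeR), so a difference in its response was not shown.

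SDC1 was higher at 4 than at 2 days on both matrices without overlap, as were 38.5% of all genes on the soft and 31.6% on the stiff matrix. Its log2 fold changes were 0.30 on the soft and 0.22 on the stiff matrix, with BH-adjusted p-values of 0.153 and 0.276 by edgeR. GPC1 was at 291.4 and 226.4 CPM on soft gels and 234.4 and 255.0 CPM on stiff gels at 2 days, and at 194.4 and 196.2 CPM on soft gels and 188.8 and 218.2 CPM on stiff gels at 4 days. Its libraries of day 4 all lay below those of day 2. Within 1 matrix, 36.7% of all genes on the soft and 31.1% on the stiff gel were lower without overlap. The log2 fold change of GPC1 was -0.41 on the soft (standard error 0.16, BH-adjusted p = 0.095) and -0.27 on the stiff matrix (standard error 0.16, BH-adjusted p = 0.245) by edgeR. Without the first soft library of day 2 the value of GPC1 on the soft matrix was -0.21, with a BH-adjusted p of 0.506, and for SDC1 it was 0.16 (0.561) without the second. Without the first or the second stiff library of day 4, GPC1 passed on the soft matrix (BH-adjusted p of 0.00562 and 0.00407), and without the second it passed on the stiff matrix as well (0.0383), in fits that called 52.9% and 52.7% of all genes on the soft matrix and, without the second, 43.8% on the stiff matrix. The same omissions let SDC1 pass on the soft matrix (0.0387 and 0.0407), and let LUM into the tested genes and pass there (0.023 and 0.0237), as LUM also did in the fit of the 4 soft libraries on their own (0.00967) and by limma on FPKM without a filter (0.0369). GPC6 had log2 fold changes of 0.44 on the soft and -0.02 on the stiff matrix, with BH-adjusted p-values of 0.206 and 0.96 by edgeR, and its exons share 511 bases with a long non-coding RNA gene on the opposite strand, so its counts are uncertain where strand was not used in counting.

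The make-up of the syndecan transcripts differed by day. In FPKM, the 4 syndecan genes summed to 123.0 and 109.2 on the soft and 125.3 and 121.5 on the stiff matrix at 2 days, and to 193.2 and 184.8 on the soft and 178.1 and 196.2 on the stiff matrix at 4 days. SDC4 made up 31.6% and 34.4% of the sum on the soft and 25.2% and 27% on the stiff matrix at 2 days. At 4 days its share was 52.8% and 52.0% on the soft and 44.7% and 47.9% on the stiff matrix. SDC1 was the largest share in each library of day 2, at 43.5% to 54.1%, and was second to SDC4 in each library of day 4, at 33.9% to 40.9%. SDC3 made up 13.6% to 14.9% at 2 days and 5.73% to 8.15% at 4 days. These shares are a description of 2 libraries per condition, for which an exact permutation test could not reach a p of 0.05.

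**Figure D3:**
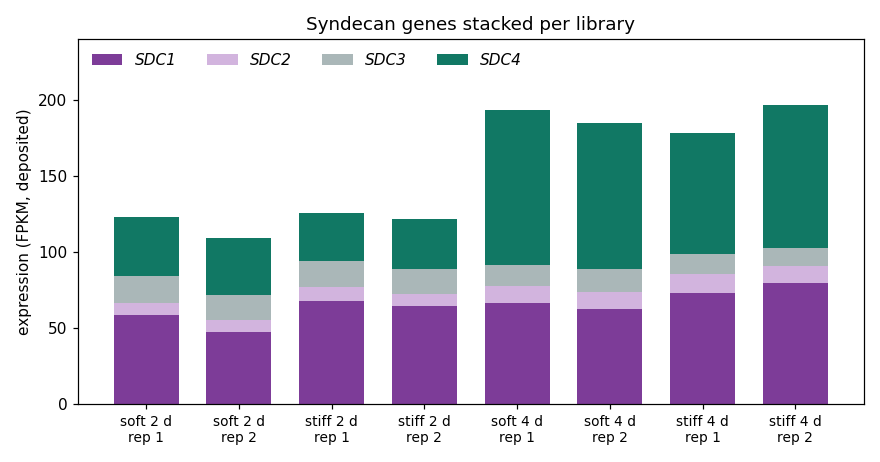
Deposited FPKM (y axis) of the 4 syndecan genes stacked for each of the 8 libraries (x axis, matrix, days and replicate). The sum is 109.2 to 125.3 FPKM at 2 days and 178.1 to 196.2 FPKM at 4 days, and most of the gain is in the SDC4 part of the bars.

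The promoters of the syndecans whose expression rose the most and fell with time were read to show what the letters before their starts hold. RefSeq promoters on GRCh38.p14 were matched for 7 of the 10 genes, SDC2, DCN and LUM not among them. The 250 bases before the start of SDC4 (chr20:45348425-45348674, reverse strand) and of SDC3 (chr1:30908759-30909008, reverse strand) are printed 5′ to 3′, with matches to GGGCGG on either strand, the GC box bound by SP and KLF factors, in capitals.
SDC4: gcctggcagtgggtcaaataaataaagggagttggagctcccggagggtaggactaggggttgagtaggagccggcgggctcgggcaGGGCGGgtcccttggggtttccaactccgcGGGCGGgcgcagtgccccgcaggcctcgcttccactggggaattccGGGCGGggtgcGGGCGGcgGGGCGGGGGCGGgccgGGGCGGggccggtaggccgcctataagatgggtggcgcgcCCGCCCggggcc
SDC3: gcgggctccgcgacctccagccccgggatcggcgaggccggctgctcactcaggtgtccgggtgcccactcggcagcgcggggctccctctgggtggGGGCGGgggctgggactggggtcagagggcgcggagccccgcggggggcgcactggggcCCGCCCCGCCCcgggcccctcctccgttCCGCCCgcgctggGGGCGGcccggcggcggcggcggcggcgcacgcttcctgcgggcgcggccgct
SDC4 held 8 such matches and SDC3 held 5, and 42.6% of 35116 promoters of this length held at least 1. Neither promoter held the AP-1 motif TGANTCA on either strand, which 6.6% of promoters held. The TEAD motif, spelled GGAATG, was also missing from both strands of the pair and was found in 11.9% of promoters. A TATA box written as TATAAA (10.7% of promoters) and an E-box written as CACGTG (6.3%) were likewise not found. GC content was 73.6% in SDC4 and 83.6% in SDC3, beside a median of 58.0% over all promoters. The matches describe these letters alone, and the gene that rose and the one that fell both held them.

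By the distance between log2 CPM profiles centred on their mean over the 8 libraries, the genes closest to SDC4 were DISC1FP1, PPP2R2B and ESM1, with root mean square differences of 0.085, 0.091 and 0.097. ESM1 encodes endocan, itself a secreted dermatan sulphate proteoglycan. It was picked for its closeness to SDC4 in these same libraries. Its rise of 1.46 on the soft and 1.55 on the stiff matrix on the log2 scale follows from that choice and is no separate result. Closest to SDC2 were CNN3, PPM1B and KIAA1191, at 0.045 to 0.049.

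Core proteins work through the chains they carry, and 71 further genes of this pathway were listed, namely other core proteins, the enzymes that build and trim the chains, and proteins that cut or bind the cores. Between the matrices 0 of the 54 tested genes of this list passed at either day by edgeR's test. At an unadjusted p under 0.05 there were 1 at 2 days and 6 at 4 days, or 1.85% and 11.1% of the 54, beside 2.82% and 6.93% of all genes. DESeq2 called 0 at both days, and voom with sample weights called 1 at 2 days, when it called 1.28% of all genes, and 0 at 4 days. With time, 9 of the 54 (16.7%) were called on the soft and 11 (20.4%) on the stiff matrix, smaller shares than the 27.4% and 27.6% of all genes, so the counts of the groups given next are no result about the pathway. DESeq2 called 12 and 13 of 56 tested (29.4% and 29.6% of all genes). Voom with sample weights called 23 and 4 of the 54 (49.1% and 13.9% of all genes). On the stiff matrix voom called 0 of the heparan sulphate enzymes, of the other glypicans and of the genes that process or bind the cores. The calls of NDST2, GPC2, SDCBP and MMP14 on the stiff matrix given below thus ended with voom. Voom called 1 of 7 linker genes and 2 of 15 chondroitin and dermatan sulphate enzymes there, fewer than edgeR did. Some of the stiff-matrix calls given below for these groups thus ended as well. On the soft and the stiff matrix in turn, the median log2 fold change with time was -0.049 and -0.15 for heparan sulphate enzymes, 0.078 and -0.085 for chondroitin and dermatan sulphate enzymes, -0.12 and -0.16 for proteins that process or bind the cores, -0.039 and -0.28 for other small leucine-rich proteoglycans and -1.24 and -1.23 for the 2 other glypicans tested, beside 0.016 and 0.028 over all genes.

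The chains start on a linker, which XYLT1 and XYLT2 begin by adding xylose to the core protein. Of 7 linker genes, 2 fell on the soft and 2 on the stiff matrix and none rose, namely these 2 enzymes, with a median log2 fold change of the group of -0.52 and -0.30. With 27.4% and 27.6% of all genes called, about 2 of 7 is the background share. XYLT1 fell by 1.25 on the soft (BH-adjusted p = 0.0275) and by 1.81 on the stiff matrix (BH-adjusted p = 0.00852) on the log2 scale, and XYLT2 fell by 0.53 and 0.59 (BH-adjusted p of 0.0363 and 0.0259 by edgeR). The stiff libraries of day 4 were uneven for XYLT1, with 420 and 1102 counts (39.2 ± 21.2 CPM, n = 2, SD). Of 15 heparan sulphate enzymes tested, 0 changed on the soft matrix (4 at an unadjusted p under 0.05 by edgeR, and 2 at the adjusted cutoff by DESeq2) and 1 fell on the stiff matrix. This was NDST2, a deacetylase and sulphotransferase of the chain, at a log2 fold change of -0.77 (BH-adjusted p = 0.0343 by edgeR). On the soft matrix NDST2 had -0.535 (BH-adjusted p = 0.101 by edgeR). It had 235 and 442 counts in the stiff libraries of day 4.

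Of 15 genes for chondroitin and dermatan sulphate, the chains of biglycan and decorin, 2 rose and 1 fell on the soft and 1 rose and 3 fell on the stiff matrix, no more than the share called over all genes. CHPF, a chondroitin polymerizing factor, fell by 0.89 on the log2 scale on both matrices (BH-adjusted p of 0.00762 and 0.00795 by edgeR). DSEL, of the dermatan sulphate epimerase family, rose by 0.89 on the soft and 0.62 on the stiff matrix (BH-adjusted p of 0.00451 and 0.0146). CSGALNACT1, which starts chondroitin chains, rose on the soft matrix by 1.03 on the log2 scale (BH-adjusted p = 0.00874 by edgeR). CHST11, a chondroitin sulphotransferase, and CHPF2, a further polymerizing factor, fell on the stiff matrix by 0.97 and 0.94 on the log2 scale (BH-adjusted p of 0.021 and 0.0467). CHPF2 was uneven in the stiff libraries of day 4, with 361 and 858 counts. A difference between the matrices in these responses was tested as a change of the stiffness effect between days, in which 0 of the 15 passed by edgeR or DESeq2 and 1 had an unadjusted p under 0.05 by edgeR.

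Among 10 genes of proteins that process or bind the cores, SDCBP rose on both matrices, by 0.79 on the soft and 0.57 on the stiff matrix on the log2 scale (BH-adjusted p of 0.00499 and 0.0145 by edgeR). It encodes syntenin, which binds the cytoplasmic tail shared by the syndecans. CASK, a scaffold that binds the same tail, rose on the soft matrix by 0.81 (BH-adjusted p = 0.0167 by edgeR). On the stiff matrix CASK had 0.56 (BH-adjusted p = 0.0565 by edgeR). MMP14, a membrane metalloproteinase able to shed syndecans, fell on the stiff matrix by 0.43 (BH-adjusted p = 0.0361 by edgeR). On the soft matrix MMP14 had -0.14 (BH-adjusted p = 0.437 by edgeR). A difference between the matrices in these responses was not shown, since 0 of the 54 pathway genes passed for a change of the stiffness effect. Of the other core proteins, GPC2 fell by 1.64 on the soft and 1.69 on the stiff matrix on the log2 scale (BH-adjusted p of 0.00898 and 0.00893), from 5.38 ± 0.485 to 1.73 ± 0.788 CPM on the soft matrix (n = 2, SD). TSKU, the gene of tsukushi, was the most abundant of the other small leucine-rich proteoglycans and fell by 0.58 and 0.85 (BH-adjusted p of 0.0192 and 0.00562), from 64.6 ± 4.59 to 43.4 ± 1.48 CPM on soft gels and from 55.9 ± 4.71 to 31.0 ± 2.06 CPM on stiff gels (n = 2, SD). Of the 13 other small leucine-rich genes, 8 were below the filter, as were GPC3 and GPC4.

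**Figure D4:**
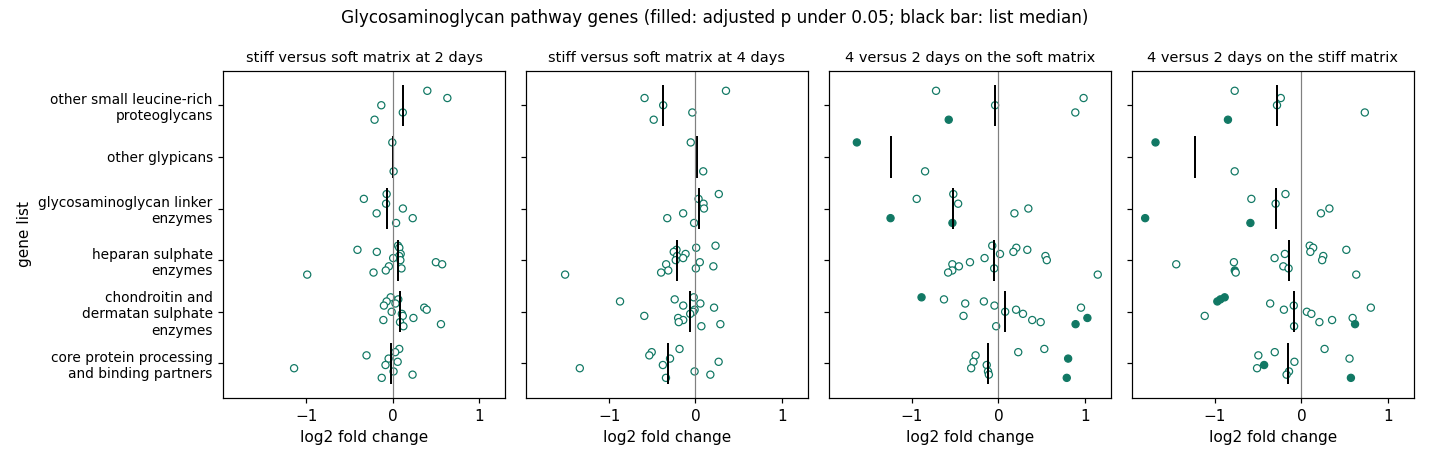
Log2 fold changes (x axis) of the tested genes of 6 pathway lists (y axis) in 4 comparisons, from the edgeR fit of all 8 libraries; each point is a gene, filled where the BH-adjusted p was under 0.05, and each black bar is the list's median. No point is filled between the matrices, and for time the filled points of the linker enzymes are both below 0.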

How the data were processed

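RNA-seq was made from LX-2 cells on 2 matrices at 2 times, with 2 libraries per condition. Reads were trimmed with Trim Galore, aligned to hg19 with STAR 2.7.1a at default parameters and counted per gene with htseq-count, and the authors deposited raw counts together with FPKM values. The annotation and strand setting of the counting are not given in the sources used here. The deposited FPKM were scaled by size factors, since the gene lengths they imply were whole to within 0.01 base in 100% of 20029 genes.

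Counts of all 8 libraries were fitted in edgeR 4.0.16 (R 4.3.3) by the quasi-likelihood method, with TMM scaling, 1 term per condition and the filterByExpr filter, and 14570 of 25369 genes were tested with Benjamini-Hochberg adjustment over all of them. A gene was called at an adjusted p under 0.05. Alternatives were another scaling or none, other filters, DESeq2 1.42.0, limma 3.58.1 on voom values or on log2(FPKM + 1) and log2(FPKM + 0.1), separate fits, a replicate block and each library left out. The scripts were tested on simulated data. Replicate numbers were not treated as pairs, and the labels do not say whether they mark a shared experiment.

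The 10 genes and the pathway lists were chosen with earlier results of these data known. In each pathway list and comparison, up to 3 genes with the largest rise and 3 with the largest fall were named among those called with a mean log2 CPM of at least 1. Nearest profiles were sought for the 3 genes of the 10 whose condition means ranged most. Those of BGN are not reported here. Of the marker lists, the hepatocyte genes summed to 4.41 to 10.6 CPM, the cholangiocyte and epithelial genes to 9.87 to 19.6, the endothelial genes to 0.246 to 1.3 and the macrophage and leukocyte genes to 89.7 to 127 CPM. The libraries are from 2 experiments per condition. The p-values of the main fit rest on a spread between libraries that was pooled over all conditions and moderated across genes. They do not measure the spread within the compared conditions alone.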

Additional observations from a re-analysis of the deposited data

How the results depend on the processing

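With 2 libraries per condition and few counts for BGN, LUM and DCN, a difference that did not pass cannot be read as absent. Of the single-gene values recomputed, 608 kept their direction and side of the cutoff, 12 newly passed it, 28 no longer passed and 20 changed sign. Except where a setting leaves out libraries, the cause was not tested.

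Without scaling factors the log2 fold change turned to -0.016 for SDC2 and -0.066 for GPC1 between the matrices at 4 days, and to -0.035 for SDC2 and -0.0085 for SDC4 in the change of the stiffness effect. The median of all genes then moved from 0.02 to -0.095 at 4 days between the matrices and from 0.028 to -0.10 with time on the stiff matrix.

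The count of the 10 genes called between the matrices at 2 days was 0, and 1 when the 4 libraries were fitted on their own (4.67% of all genes). With time on the soft matrix the count of 2 (27.4% of all genes called) became 4 with voom weights (49.1%), 4 in the separate fit (50.7%), 1 with the replicate block (18%), 1 with a 2-fold cutoff, and 1 to 6 when a library was left out (2.32% to 52.9%). With time on the stiff matrix the count of 3 (27.6%) became 1 with voom weights (13.9%), 0 in the separate fit (0%), 1 with the replicate block (17.5%), 1 with a 2-fold cutoff, and 1 to 4 when a library was left out (3.14% to 52.1%). The replicate block ended the calls of SDC2 (BH-adjusted p of 0.0568 on the soft and 0.0549 on the stiff matrix) and of SDC3 (0.087). Without 1 or the other stiff library of day 4, the count on the soft matrix was 6, with LUM among them, in fits that called 52.9% and 52.7% of all genes. DESeq2 gave 2 and 3.

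Leaving out 1 library at a time moved the log2 fold change across 0 at 2 days between the matrices for BGN (-0.30 to 0.15), SDC3 (-0.097 to 0.046) and GPC1 (-0.25 to 0.11), and at 4 days for GPC1 (-0.040 to 0.17). It did so in the change of the stiffness effect for SDC1 (-0.24 to 0.061), SDC2 (-0.077 to 0.12), SDC4 (-0.060 to 0.18) and GPC1 (-0.053 to 0.31), and with time for BGN on the soft (-0.65 to 0.27) and GPC6 on the stiff matrix (-0.21 to 0.14).

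Same-numbered libraries of different conditions had deviations that correlated at -0.49 to 0.077, so the numbers are not treated as pairs. With the pairs crossed at 4 days, chosen after seeing the data, the counts with time were 2 and 3.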

Other observations

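The ratio of SDC4 to SDC1 in FPKM was examined after its values were seen. It was 0.667 and 0.789 on the soft and 0.465 and 0.511 on the stiff matrix at 2 days, and 1.54 and 1.54 on the soft and 1.09 and 1.18 on the stiff matrix at 4 days. The stiff libraries were below the soft libraries of the same day at both days. Within day, the ratio was 0.704 times as high on the stiff matrix, and within matrix it was 2.22 times as high at 4 as at 2 days. Each had a two-sided exact permutation p of 0.0556 (adjusted 0.0556), the smallest that the 36 arrangements can give, so neither could reach 0.05.

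A contrast of the stiff against the soft matrix averaged over both days, also added after seeing the data, gave a log2 fold change of 0.28 for SDC1 (standard error 0.102, BH-adjusted p = 0.509) and -0.22 for SDC4 (standard error 0.0938, BH-adjusted p = 0.623) by edgeR. It called 0.426% of all genes and 0 of the 7 tested here, of which SDC1 and SDC4 had an unadjusted p under 0.05 (0.0264 and 0.046).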
